A study of Homo sapiens with 12 samples.

Results

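The BCL2 family sets the threshold at which a cell enters the mitochondrial pathway of apoptosis, and 10 of its genes were looked up by NCBI gene ID in the authors' deposited table of treatment effects in MOLT4, an established human T lymphoblast line from an acute lymphoblastic leukaemia. The table lists 5759 genes, and 5 of the 10 were among them: MCL1 (gene ID 4170), BCL2L1 (598), BAK1 (578), BIK (638) and BMF (90427). The other 5, BCL2, BCL2L11, PMAIP1, BBC3 and BAX, have no row there and are not analysed here. MOLT4 cells labelled WT had been exposed in 4 groups of 3 samples to DMSO (the vehicle) for 6 h, to compound 955 at 0.1 µM for 1 h, to 955 at 0.1 µM for 6 h, or to SNS-032 at 1 µM for 6 h. SNS-032 is an inhibitor of cyclin-dependent kinases that include CDK9, the kinase that releases paused RNA polymerase II, and the design text calls it the warhead of 955 in a series titled for piperlongumine conjugates. All groups come from 1 cell line, the doses of the compounds differ, and vehicle cells were collected at 6 h only, so in the 1 h comparison treatment and time in culture cannot be told apart. The labels number the samples as replicates without saying whether they were separate cultures, so p-values measure the spread between these samples, which may be technical.

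BCL2 family proteins control whether the outer mitochondrial membrane is permeabilised and cytochrome c released. Antiapoptotic members such as MCL1 and BCL2L1 (the gene of BCL-XL) bind and restrain the effectors BAX and BAK1, which form the membrane pores, while BH3-only members such as BIK and BMF occupy the antiapoptotic proteins and so favour pore formation. MCL1 mRNA and protein are both short-lived, and for that reason the gene is a common readout of inhibitors of transcriptional kinases in leukaemia cells. The table is at gene level, so it does not separate the long antiapoptotic forms of MCL1 and BCL2L1 from their short, proapoptotic splice forms.

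Nearly every gene in the table had changed: for 5757 of the 5759, at least 1 comparison had both a false discovery rate (FDR) under 0.05 and a log2 fold change of 1 or more in either direction. Those bounds together are the threshold used below. Each listed member therefore had to pass it somewhere, and counts of members past it are descriptions. The table gives 1 average level per gene over all samples and 1 effect per comparison, and values of single samples and sequencing depth were not used here. Standard errors and intervals below are derived from the F statistics in the table. Of 14 T lymphoblast marker genes, 6 are listed, among them CD1E, CD3G and CD7 with average levels of 8.06, 7.13 and 7.06 (log2 CPM, reads scaled to library size). After 6 h of 955 and of SNS-032 the authors' deposited table gives -3.17 and -3.35 for CD2, -1.39 and -1.46 for CD3G, -1.11 and -1.23 for CD1E, 2.26 and 2.37 for CD4, 1.59 and 1.90 for CD7, and 0.98 and 1.33 for DNTT. Under the authors' scaling the T lymphoblast markers thus moved in both directions. When each comparison was centred on mitochondrially encoded mRNAs, as set out below, CD4 stood at 0.19 and 0.03, CD7 at -0.48 and -0.45, and DNTT at -1.09 and -1.02. CD2, CD3G and CD1E stayed lower. Of 12 markers of other blood cells, 2 are listed, and for the B cell gene CD79A, at 3.94, the authors' deposited table gives log2 fold changes of 0.97 after 6 h of 955 and of 1.10 for SNS-032. After that centring CD79A stood at -1.10 and -1.24, past the threshold on the lower side. The part of these marker changes in the members' results was not tested. The markers without a row give no information on identity.

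MCL1 lies on the minus strand of chromosome 1 at 150574558 to 150579610 (RefSeq, GRCh38.p14; the submitters' processing notes name hg38) and is the shortest of the 5 members, with a span of 5053 bp. BAK1 spans 7725 bp on chromosome 6 (33572552 to 33580276, minus strand), BIK 18963 bp on chromosome 22 (43110750 to 43129712, plus strand), BMF 20990 bp on chromosome 15 (40087890 to 40108879, minus strand) and BCL2L1 59512 bp on chromosome 20 (31664452 to 31723963, minus strand). Per kilobase of exon in GENCODE release 29, the average level over all samples was highest for BCL2L1 at 4.76 (log2 CPM per kb), followed by BAK1 at 4.13, MCL1 at 3.90, BIK at 1.14 and BMF at 0.79. No spread over samples comes with these averages, so neighbours in this order cannot be separated. BAK1 has 2 processed pseudogenes, BAK1P1 and BAK1P2, and lies inside the opposite-strand pseudogene GGNBP1. BCL2L1 is overlapped on the opposite strand by ABALON and AL117381.1, and BMF by BMF-AS1. The use of strand in counting is not given in the sources used here, so reads of these partners cannot be told apart from those of the members.

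Promoter windows from 250 bases before to 50 after the annotated start were at hand in the RefSeq set (GRCh38.p14) for 3 listed members. They are shown because these genes, 1 antiapoptotic, 1 effector and 1 BH3-only, were all lower after 6 h of 955, so that the elements in front of them can be compared. Capitals mark 3 promoter elements, searched on both strands. The TATA box was searched as TATAAA. The CCAAT box was searched by the letters of its name. The GC box, bound by SP1, was searched as GGGCGG. No match overlapped another. Each window is read 5′ to 3′ on the gene's own strand, and the window at the gene's outermost start is shown where a gene has 2.
BCL2L1, chr20:31723914-31724213, minus strand: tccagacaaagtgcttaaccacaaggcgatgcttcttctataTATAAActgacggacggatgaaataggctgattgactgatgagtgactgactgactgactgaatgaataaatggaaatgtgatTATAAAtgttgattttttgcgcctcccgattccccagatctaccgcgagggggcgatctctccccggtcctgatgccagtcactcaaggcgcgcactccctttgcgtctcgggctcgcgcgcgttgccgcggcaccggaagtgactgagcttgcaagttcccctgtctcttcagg
BAK1, chr6:33580227-33580526, minus strand: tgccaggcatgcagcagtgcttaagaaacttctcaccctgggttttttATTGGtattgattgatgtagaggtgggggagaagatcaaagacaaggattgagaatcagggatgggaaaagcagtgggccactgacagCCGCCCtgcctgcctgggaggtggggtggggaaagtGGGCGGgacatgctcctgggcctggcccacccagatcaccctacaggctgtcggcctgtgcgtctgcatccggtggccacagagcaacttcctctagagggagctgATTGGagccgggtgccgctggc
BMF, chr15:40108830-40109129, minus strand: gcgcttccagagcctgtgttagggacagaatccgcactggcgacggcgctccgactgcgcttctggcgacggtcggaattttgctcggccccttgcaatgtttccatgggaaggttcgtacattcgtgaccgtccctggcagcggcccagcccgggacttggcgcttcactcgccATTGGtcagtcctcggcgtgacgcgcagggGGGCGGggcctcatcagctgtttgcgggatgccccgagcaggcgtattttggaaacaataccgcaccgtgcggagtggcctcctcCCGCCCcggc

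The windows of BAK1 and BMF each held 2 GC boxes, at -114 and -78 from the start in BAK1 and at -45 and 40 in BMF. CCAAT boxes were found at -202 and 28 in BAK1 and at -75 in BMF. The BCL2L1 window held neither of these and had TATA boxes at -208 and -125, upstream of where a TATA box usually sits. Its second annotated start, at chr20:31722819-31723118, had 1 GC box at -5. The window at the second annotated start of BMF, chr15:40106917-40107216, held no GC, CCAAT or TATA box. None of the windows held the E-box CACGTG, the site of MYC and MAX. GC boxes occur in 45.0% of the 35116 promoter windows of this length and in 64.9% of the 6438 windows of listed genes. CCAAT boxes occur in 34.6% and 35.7%, TATA boxes in 11.5% and 6.99%, and the E-box in 7.26% and 9.54%. GC content was 52.0% for BCL2L1, 58.7% for BAK1 and 65.0% for BMF, against a median of 64.7% for windows of listed genes. These matches describe sequence only.

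After 6 h of 955, all 5 listed members were lower than in DMSO by both bounds, from the authors' deposited table, a count read beside the 50.1% of listed genes that were lower by the same rule. The levels left, as a percent of DMSO, were 49.2% for MCL1, 47.9% for BMF, 46.6% for BAK1, 40.6% for BCL2L1 and 31.7% for BIK (16.5% to 60.9%). The median log2 fold change of the members was -1.10, beside -1.03 for all listed genes. By role, antiapoptotic, effector and BH3-only genes were all on the lower side.

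MCL1 was the least changed of the 5 at that time, at -1.02 on the log2 scale (FDR 1.18e-05 in the authors' deposited table; implied standard error 0.16, 95% interval -1.35 to -0.70). Its value sits at the fold bound and near the middle of the table, where 50.03% of listed genes had lower values. Because 50.1% of listed genes were lower by both bounds, the middle of the table falls at the fold bound. MCL1 was thus among the least lowered of the genes past the threshold on that side. BCL2L1, which encodes the second main survival protein of the family, fell by 1.30 on the log2 scale with an FDR of 8.78e-08 in the authors' deposited table (0.14, -1.60 to -1.005). The effector BAK1 fell by 1.10 with an FDR of 3.62e-06 in the same authors' deposited table (0.16, -1.42 to -0.78). Of the BH3-only genes, BIK fell by 1.66 with an FDR of 0.00632 in the authors' deposited table (0.46, -2.60 to -0.72), and BMF by 1.06 with 0.000743 (0.23, -1.54 to -0.58). The intervals of all 5 overlap, and BIK, at an average level of 1.07 log2 CPM, has by far the widest.

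Under SNS-032 for 6 h, 4 of the 5 were lower by both bounds, from the authors' deposited table, where 52.5% of listed genes were lower by that rule. MCL1 stood at 31.5% of DMSO (95% interval 25.0% to 39.6%), with -1.67 on the log2 scale and 8.52e-09 as its FDR in the authors' deposited table. BAK1 was at 30.9% (24.6% to 38.8%), with -1.69 and 5.7e-09 in the authors' deposited table. BCL2L1 was at 37.9% (30.8% to 46.6%), with -1.40 and 2.58e-08 in the authors' deposited table. The antiapoptotic MCL1 and the pore-forming effector BAK1 thus had almost the same share of their DMSO levels left. BIK was at 29.3% (15.1% to 56.7%), with -1.77 and an FDR of 0.00382 in the authors' deposited table. BMF, a BH3-only gene whose protein is otherwise held at the cytoskeleton, did not pass: its log2 fold change was -0.59 with an FDR of 0.0582 in the authors' deposited table, or 66.5% of DMSO (47.9% to 92.4%). The median of the 5 was -1.67, against -1.07 for all listed genes, and 26.9% of listed genes had lower values than MCL1.

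**Figure D1:**
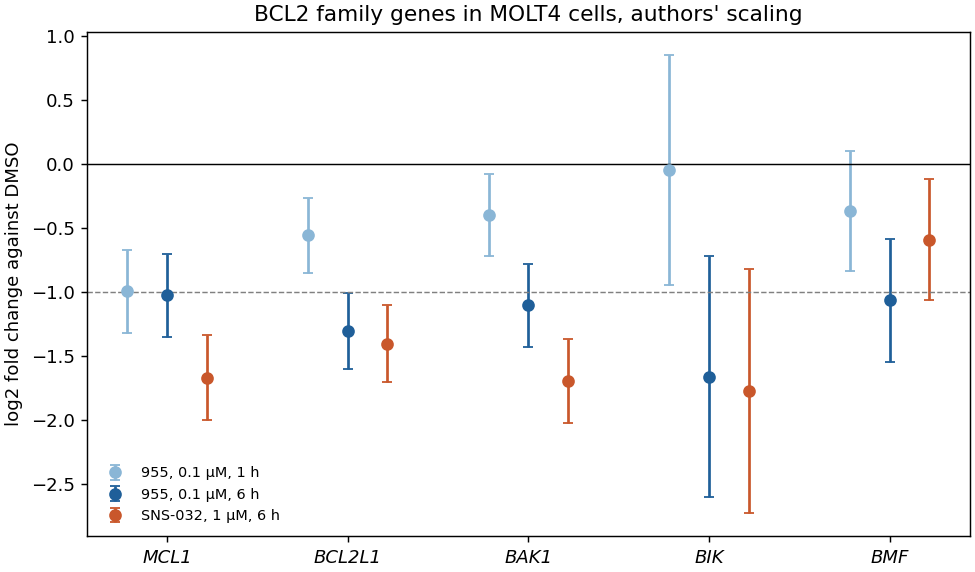
Log2 fold change against DMSO (vertical axis) of the 5 listed BCL2 family genes for 1 h of 955, 6 h of 955 and 6 h of SNS-032; points are the authors' values, bars are 95% intervals from the implied standard errors, and the dashed line is the fold bound of -1. MCL1 has nearly the same value at 1 h (-0.99) and 6 h (-1.02) of 955, while the other 4 are nearer 0 at 1 h.

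After 1 h of 955, MCL1 was already at 50.2% of the DMSO level (40.1% to 62.9%). Its log2 fold change was -0.99 with an FDR of 0.000329 in the authors' deposited table (implied standard error 0.16), so it missed the fold bound by a margin far below its own error. None of the 5 members passed both bounds at 1 h, where 7.71% of listed genes were lower and 0.729% higher by that rule. On the FDR alone MCL1 and BCL2L1 passed, beside 11.9% of listed genes that were lower on the FDR alone. BCL2L1 was at 68.1% (55.6% to 83.4%), with -0.55 and an FDR of 0.0217 in the authors' deposited table. BAK1 was at 76.0% with an FDR of 0.2, BMF at 77.5% with 0.62 and BIK at 97.0% with 1, from the authors' deposited table. The interval of BIK, 52.1% to 181%, allows a change of either sign. In the table's order at 1 h, 10.8% of listed genes had lower values than MCL1, 22.3% than BCL2L1, 28.8% than BAK1, 30.1% than BMF and 50.7% than BIK. MCL1 thus moved from the lower tail of the table at 1 h to its middle at 6 h, a position that depends on which genes were listed.

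**Figure D2:**
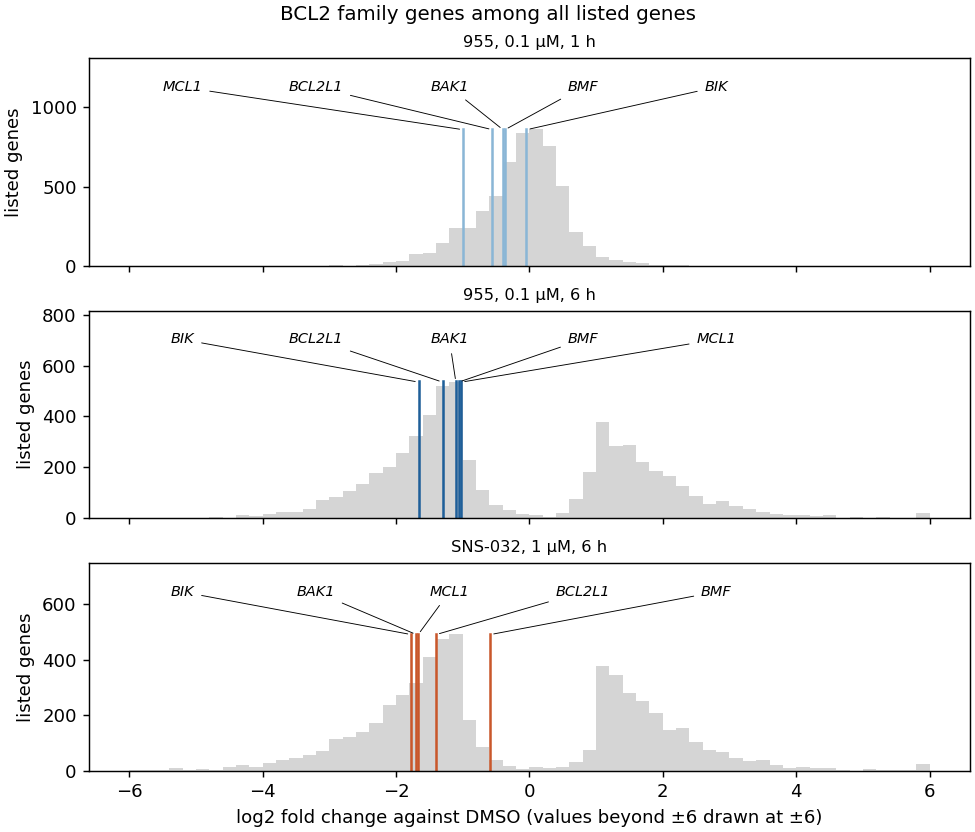
Histograms of the log2 fold change against DMSO (horizontal axis) over the 5759 listed genes (vertical axis, number of genes) in the 3 comparisons, with a line for each listed BCL2 family gene. The gap around 0 at 6 h follows from listing genes that had changed. MCL1 lies in the lower tail at 1 h (10.8% of genes lower) and at the middle after 6 h of 955 (50.03%), where that gap begins.

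The contrast of 955 at 6 h with 955 at 1 h, the same dose at both times, gave MCL1 a value near 0 and the other members negative values. Vehicle cells were collected at 6 h only, so time under 955 and time in culture cannot be told apart in it. MCL1 differed by -0.03 on the log2 scale (6 h minus 1 h; standard error 0.16, 95% interval -0.36 to 0.30, adjusted p 0.86), a ratio of 0.98 with an interval of 0.78 to 1.23. BCL2L1 was lower at 6 h by a difference of -0.75 (0.14, adjusted p 5.4e-05), BAK1 by -0.71 (0.15, 0.000248), BMF by -0.70 (0.23, 0.00793) and BIK by -1.62 (0.45, 0.0021). So 4 of the 5 were past an adjusted p of 0.05 and lower at 6 h, as were 46.7% of listed genes, and BIK alone also differed by at least 1, as did 35.6% in that direction. The intervals of BCL2L1 (-1.04 to -0.45), BAK1 (-1.03 to -0.39) and BIK (-2.54 to -0.69) do not overlap that of MCL1, while that of BMF (-1.17 to -0.22) does; the differences between genes were not tested. Of the log2 change seen at 6 h, 97.1% was present at 1 h for MCL1, 42.6% for BCL2L1, 35.9% for BAK1, 34.6% for BMF and 2.66% for BIK. Among the 615 listed genes lower on the FDR at both times, the median of this share was 66.1% and 23.6% of genes had a share at least as high as that of MCL1. The FDR bound at 1 h favours genes with a high share. BAK1, BMF and BIK did not pass it and are not among the 615, so that median is no reference for their shares. The call of BMF ended (adjusted p 0.0573) when both standard errors were added in quadrature, as if no DMSO samples were shared.

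The constancy of MCL1 between 1 h and 6 h depended on the scaling. The 13 mRNAs of the mitochondrial genome, which RNA polymerase II does not transcribe, were higher in the authors' deposited table by a median log2 fold change of 0.67 after 1 h of 955, 2.07 after 6 h and 2.35 with SNS-032. When each comparison was centred on them, MCL1 stood at -1.67 after 1 h (31.5% of DMSO), -3.09 after 6 h of 955 (11.7%) and -4.01 with SNS-032 (6.19%), and the difference between 6 h and 1 h became -1.43 (adjusted p 1.19e-08). On that scale MCL1, BCL2L1, BAK1 and BMF were past both bounds at 1 h and BIK, at -0.72, was not, beside 27.7% of listed genes that were lower by the same rule. All 5 were past both bounds at 6 h of either compound on that scale, at 5.76% (BIK) to 13.1% (BMF) of DMSO for SNS-032. Of all listed genes, 65.8% with 955 and 71.1% with SNS-032 were lower by that rule at 6 h, and 58.1% were lower by at least 1 between 1 h and 6 h of 955. BMF with SNS-032 went from -0.59 to -2.93. Which scale is nearer to the amount of RNA per cell was not tested.

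**Figure D3:**
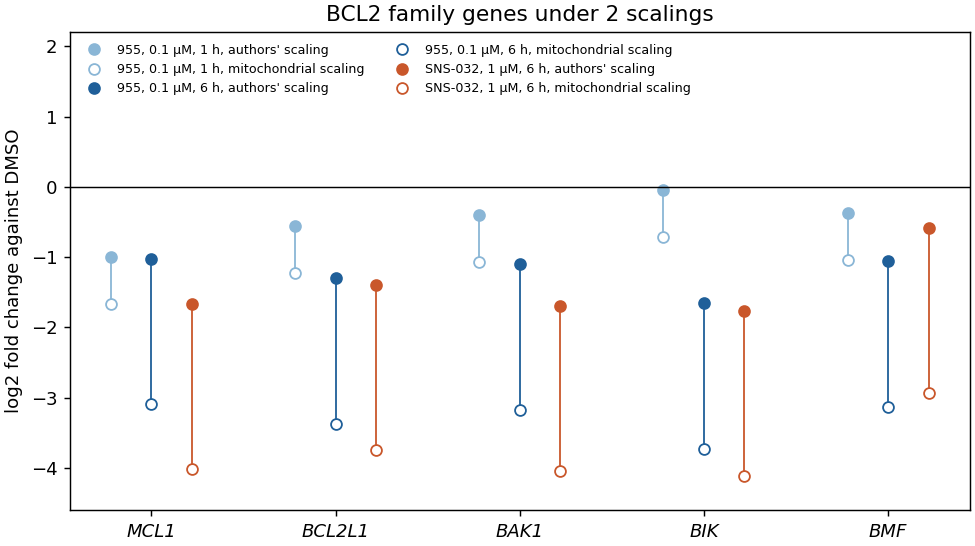
Log2 fold change against DMSO (vertical axis) of the 5 listed genes in 3 comparisons under the authors' scaling (filled) and centred on the 13 mitochondrially encoded mRNAs (open), joined by a line. Centring lowers all values of a comparison by the same amount (0.67, 2.07 and 2.35), so MCL1 at 955 for 6 h moves to -3.09, below its 1 h value of -1.67.

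Ratios between members do not depend on the scaling. Relative to BCL2L1, MCL1 was at 0.74 times its DMSO ratio after 1 h of 955, 1.21 times after 6 h and 0.83 times with SNS-032. Relative to the effector BAK1 it was at 0.66, 1.06 and 1.02 times, relative to BIK at 0.52, 1.55 and 1.07 times, and relative to BMF at 0.65, 1.03 and 0.47 times. All 4 ratios were below 1 after 1 h of 955 and above 1 after 6 h of it, and these ratios carry no test.

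At 6 h the compounds can be set side by side, at doses that differ: 955 at 0.1 µM and SNS-032 at 1 µM. MCL1 was higher with 955, by a log2 difference of 0.65 (955 minus SNS-032; standard error 0.16, 95% interval 0.32 to 0.97, adjusted p 0.0264), or 1.56 times. BAK1 was higher with 955 by 0.59 (0.16, 0.27 to 0.92, adjusted p 0.041), or 1.51 times. Both kept an adjusted p under 0.05 on the scale of mitochondrial mRNAs, with differences of 0.92 and 0.87. That centring raises the difference of every listed gene by the same amount, and the share of listed genes higher on that scale is not given here. Under the authors' scaling, on the adjusted p alone, 1.75% of listed genes were higher with 955, and 0.851% also differed by at least 1, which neither gene did. BCL2L1 differed by 0.10 with an interval of -0.20 to 0.40 (adjusted p 0.829), which leaves room for a ratio of 0.87 to 1.32. BIK differed by 0.11 (-0.84 to 1.06, adjusted p 0.944), an interval too wide to separate equal from 2.09-fold unequal levels. BMF was the only member with a negative difference, -0.48 (-0.95 to 0.00076, p 0.0503, adjusted p 0.337 under the Benjamini-Hochberg method), and did not pass. The calls of MCL1 and BAK1 ended when the adjustment was widened to the 28395 tests behind the authors' FDR (adjusted p 0.13 and 0.202). Unlisted genes have no contrast here, so that adjustment counts each of them as a test without a difference, which is its strictest form. Both calls also ended when both standard errors were added in quadrature, as if no DMSO samples were shared (0.471 and 0.565).

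**Figure D4:**
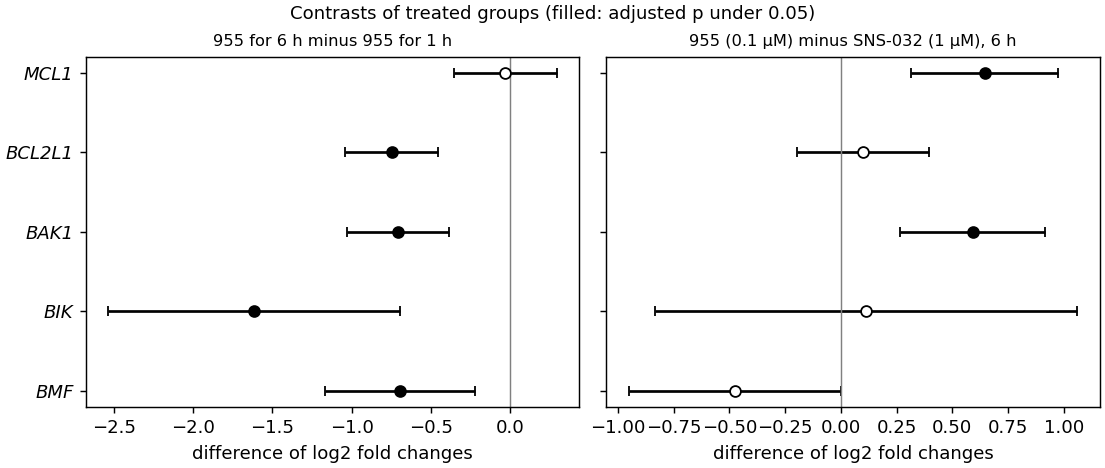
Difference of log2 fold changes (horizontal axis) for 955 at 6 h minus 955 at 1 h (left) and 955 minus SNS-032 at 6 h (right) in the 5 listed genes, with 95% intervals; filled points have an adjusted p under 0.05. MCL1 is at -0.03 on the left and 0.65 on the right, and BMF is the 1 gene left of 0 in both.

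The listed genes most like each member over the 3 effects were found by Euclidean distance among genes within 2 log2 CPM of its level. For MCL1, out of 2755 candidates, they were EIF1AD (distance 0.14), PPRC1 (0.22), FEM1A (0.27), the lncRNA OTUD6B-AS1 (0.28) and PCF11 (0.29). PCF11, a factor of mRNA 3′ end cleavage and transcription termination, had -1.19, -0.99 and -1.47 at 1 h of 955, 6 h of 955 and SNS-032. EIF1AD had -1.06, -1.14 and -1.64. The other members had closer neighbours: VIRMA (0.05), RSPRY1 (0.07) and ASB8 (0.08) for BCL2L1, ZNF22-AS1 (0.10), DCAF16 (0.12) and SEMA7A (0.13) for BAK1, RAB9B (0.04), SPATA33 (0.12) and LRRC46 (0.13) for BIK, and GPHN (0.06), FLCN (0.07) and MTHFSD (0.12) for BMF. VIRMA, a subunit of the m6A methyltransferase complex, had -0.53, -1.35 and -1.41. The 3 effects share the same DMSO samples, so the likeness is a description.

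Of 14 further genes of the BCL2 family, 3 are listed. BNIP3 and BNIP3L, mitochondrial BH3-like proteins that act as receptors for mitophagy, were higher at 6 h, where 35.2% of listed genes with 955 and 37.8% with SNS-032 were higher by both bounds. In the authors' deposited table BNIP3 had 2.83 with 955 and 2.74 with SNS-032 (FDR 0.0109 and 0.0121), and BNIP3L 2.56 and 2.75. Centred on the mitochondrial mRNAs, BNIP3 stood at 0.76 and 0.40 and BNIP3L at 0.48 and 0.40, none past the threshold. BCL2L12 was at -0.94 with 955, short of the fold bound, and fell by 1.09 under SNS-032, both from the authors' deposited table. At 1 h of 955 none of the 3 was past the threshold.

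Downstream of the membrane, 7 of 16 genes of the apoptosome, the caspases and the mitochondrial intermembrane space are listed, and 6 fell with 955 and 7 with SNS-032 at 6 h, with medians of -1.57 and -1.33. Of all listed genes 50.1% and 52.5% were lower by that rule, with medians of -1.03 and -1.07. ENDOG, a mitochondrial endonuclease, had -2.92 and -2.43 in the authors' deposited table. AIFM1, the apoptosis-inducing factor, had -2.36 and -2.34 in the authors' deposited table. VDAC3 was the gene short of the fold bound with 955, at -0.98. At 1 h the 7 ranged from -0.30 to 0.20 and none had an FDR under 0.05, beside -0.99 for MCL1.

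Of 9 inhibitors of apoptosis and related genes, 3 are listed and they moved apart. BIRC7, which encodes livin, was higher by 3.26 and 3.56, and BIRC3, which encodes cIAP2, by 1.34 and 1.35 in the authors' deposited table, and after centring on the mitochondrial mRNAs BIRC7 stood at 1.19 and 1.21 without passing and BIRC3 turned to -0.73 and -0.999, short of the fold bound. AVEN, an inhibitor of APAF1 activation, fell at 6 h, with log2 fold changes of -3.26 and -2.72 in the authors' deposited table. Under the authors' scaling 50.1% of listed genes were lower and 35.2% higher by both bounds with 955, and 52.5% and 37.8% with SNS-032. At 1 h none of the 3 passed, and BIRC3 was at -0.70 (FDR 0.0526 in the authors' deposited table).

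Of 12 genes of the death receptor pathway, 4 are listed. FADD, the adaptor that recruits caspase-8, was at -2.37 after 1 h of 955 (FDR 2.37e-06), -2.92 after 6 h and -3.94 under SNS-032, all from the authors' deposited table. TNFRSF1A, a receptor of tumour necrosis factor, was at -1.997, -2.53 and -2.56 in the authors' deposited table, and these 2 genes passed the threshold at 1 h. By both bounds 7.71% of listed genes were lower at 1 h. At 6 h, 50.1% were lower and 35.2% higher with 955, and 52.5% lower and 37.8% higher with SNS-032. FADD, like MCL1 and BAK1, was higher with 955 than with SNS-032, by 1.02 (adjusted p 0.029). That call also ended with the adjustment widened to 28395 tests (0.143) and with standard errors added in quadrature (0.481). RIPK1 fell at 6 h with both compounds, at -2.07 and -1.93. TNFRSF10B, a receptor of TRAIL, was higher at 6 h, at 1.12 and 1.20 in the authors' deposited table, and after centring on the mitochondrial mRNAs it stood at -0.95 and -1.15, the latter past the threshold.

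Of 13 genes tied to the turnover of the MCL1 protein, 3 are listed. USP13, a deubiquitinase, fell by 1.85 under 955 and by 1.55 under SNS-032, from the authors' deposited table. UBE2K, a ubiquitin-conjugating enzyme, fell too, at -1.03 and -1.24 in the authors' deposited table. DUSP6, a phosphatase of ERK, was at -1.64 at 1 h (FDR 0.0466), -1.12 after 6 h of 955 (FDR 0.0785) and -1.56 under SNS-032 (FDR 0.013), from the authors' deposited table, so it passed at 1 h and with SNS-032 and missed with 955 at 6 h. Protein levels were not measured in these data.

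**Figure D5:**
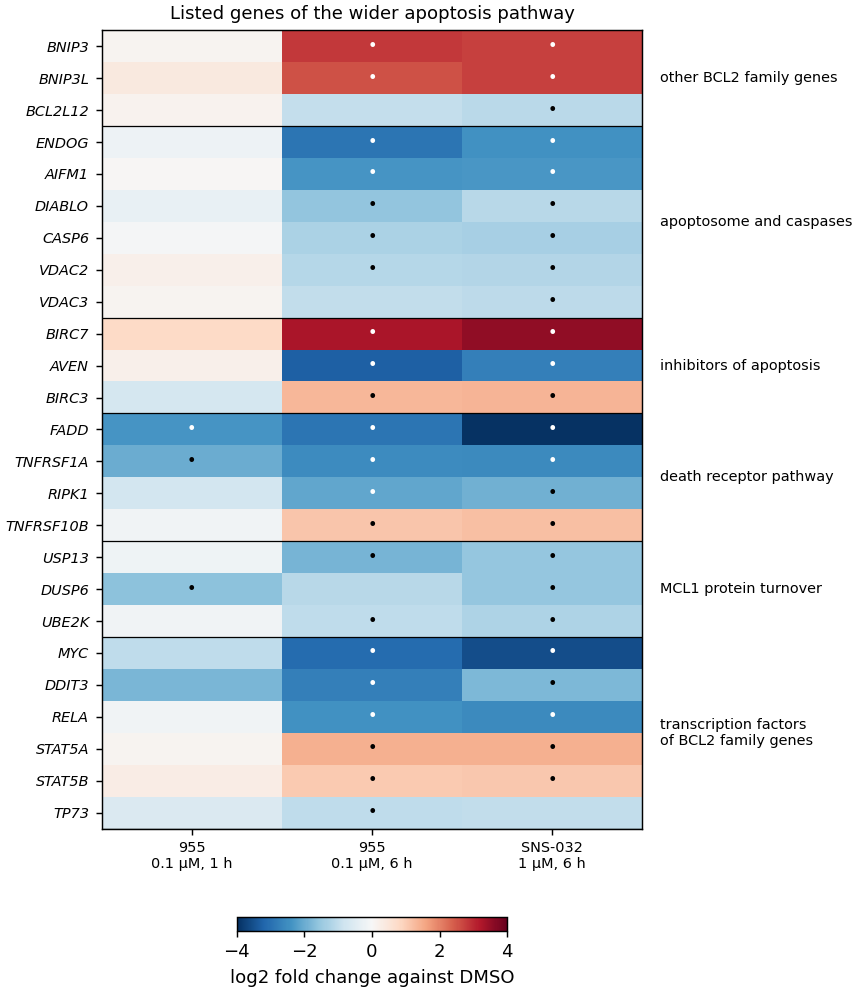
Log2 fold change against DMSO (colour, from -4 in blue to 4 in red) of listed genes from 6 lists around the BCL2 family (rows) in the 3 comparisons (columns); a dot marks genes past the threshold. The 1 h column is pale except for FADD, TNFRSF1A, DUSP6, DDIT3 and MYC, and most rows are blue at 6 h.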

How the data were processed

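Total RNA of 12 MOLT4 samples was sequenced after mRNA library preparation, per the labels' protocols. The deposited file holds the authors' own 3 comparisons against DMSO. Per the file headers, its columns are a log2 fold change (headed logFC; base 2 is read from the values), an average log2 CPM, an F statistic (a score deposited by the authors), a p-value and an FDR. The submitters' processing notes name hg38 and DESeq2 with no role; the column names are not those DESeq2 writes, and aligner, counter, annotation and filters are not given in the sources used here.

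Gene IDs were matched to RefSeq symbols (GRCh38.p14; 5727 of 5759). Dividing the size of each log2 fold change by the root of F gave the implied standard errors, and 95% intervals use Student's t distribution with denominator degrees of freedom solved from F and p (median 23.3). Contrasts of treated groups are differences of log2 fold changes, with the root mean square of both standard errors and Benjamini-Hochberg adjustment over the 5759 listed genes. The method was tested only on simulated counts with a known spread and with larger differences than those of MCL1 and BAK1 between the compounds. That test does not cover calls of their size. Levels as a percent of DMSO are 2 to the power of the log2 fold change. The authors' FDR corresponds to 28395 tests: among 3083 values, that number gave whole ranks (within 0.01) for 81.1%. Mitochondrial scaling subtracts the median of 13 mRNAs and keeps the standard errors. On that scale comparisons with DMSO were adjusted over 28395 tests, with unlisted genes at p 1. Contrasts of treated groups on that scale were adjusted over the 5759 listed genes. Tools were Python 3.11.15, NumPy 2.4.6, SciPy 1.17.1 and pandas 2.3.3.

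All listed members are named, with the 3 listed genes of largest absolute change per related list (VDAC3, TNFRSF10B, TP73, STAT5A and STAT5B were added after their values were seen), and the nearest genes by pattern; some listed genes of the related lists count in the totals but are not reported here by name. Members and lists were chosen with earlier results of these data known. Alternatives were other bounds, other standard errors and the mitochondrial scaling.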

Additional observations from a re-analysis of the deposited data

Results flagged for a closer look

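These results stand out because the log2 fold change against DMSO differed between times or between compounds. They come from the approximate contrast of treated groups, with Benjamini-Hochberg adjustment over the listed genes. Between 6 h and 1 h of 955, the difference was -0.75 for BCL2L1 (adjusted p 5.4e-05), -0.71 for BAK1 (0.000248), -1.62 for BIK (0.0021) and -0.70 for BMF (0.00793), all lower at 6 h. MCL1 was the listed member without such a difference under the authors' scaling. Between 955 at 0.1 µM and SNS-032 at 1 µM, the difference was 0.65 for MCL1 (adjusted p 0.0264) and 0.59 for BAK1 (0.041), both higher with 955. Dose and compound cannot be told apart in the latter. In the contrast of 6 h with 1 h, time under 955 and time in culture cannot be told apart, as vehicle cells were collected at 6 h only.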

How the results depend on the processing

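The counts of members past the threshold at 6 h (5 with 955, 4 with SNS-032) moved by less than 1.5 times under the 3 alternatives run for each. At 1 h of 955 the count was 0, and became 2 without the fold bound and 4 when centred on the mitochondrial mRNAs. With that centring the 27 listed genes of the related lists went from 3 to 8. The share of all listed genes that were lower was 7.71% by both bounds, 11.9% without the fold bound and 27.7% with the centring. These counts are thus read beside a rise over the whole table. For 955 against SNS-032, 0 members passed both bounds and 2 passed without the fold bound, beside 0.851% and 1.75% of listed genes higher with 955. For 6 h against 1 h of 955, 1 member passed, 4 without the fold bound and 5 on the mitochondrial scale. By the same rules 35.6%, 46.7% and 58.1% of listed genes were lower at 6 h. No direction of a listed member reversed. For single members, a comparison with DMSO was judged by both bounds and a contrast of treated groups by its adjusted p alone. Among the alternative values, 72 kept their side, 8 passed newly and 5 no longer passed. The 5 are MCL1 and BAK1 between the compounds (under both stricter treatments given above) and BMF between times. Adjustment of the contrasts to 28395 tests, with unlisted genes counted as tests without a difference, was added after the data were seen. No paired analysis was possible because the table holds no values per sample, and for the same reason leaving out single replicates was not run. BIK had standard errors of 0.43 to 0.46, against 0.14 to 0.23 for the other members, and sequencing depth is unknown.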

Other observations

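Of 16 genes for transcription factors known to act on BCL2 family promoters, 7 are listed, and none was past the threshold after 1 h of 955. After 6 h, 5 fell and 2 were higher with 955, and 4 fell and 2 were higher with SNS-032, under the authors' scaling. Of all listed genes 50.1% were lower and 35.2% higher with 955, and 52.5% lower and 37.8% higher with SNS-032, by the same rule. MYC, which can induce BCL2L11 and other BH3-only genes, had log2 fold changes of -1.03 (FDR 0.0685) for 1 h of 955, -3.07 for 6 h of it and -3.53 for SNS-032, from the authors' deposited table. RELA, the NF-kB subunit that acts on BCL2L1, was at -0.16, -2.41 and -2.54, and DDIT3, a stress factor that acts on BCL2L11, at -1.81 (FDR 0.0853), -2.74 and -1.78. STAT5A and STAT5B were higher at 6 h, at 1.42 and 1.04 with 955 and 1.43 and 1.07 with SNS-032, and after centring on the mitochondrial mRNAs they stood at -0.65 and -1.03 with 955 and -0.92 and -1.28 with SNS-032. TP73 was at -1.02 with 955 and, short of the fold bound, at -0.97 with SNS-032. These values are given side by side with those of the members, and their part in the members' changes was not tested.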
